A study of Homo sapiens with 9 samples.

Results

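Histone lysine methyltransferases, with NSD2 among them, were followed over 9 expression arrays of human myeloid leukemia cell lines. The members were 35 genes chosen by name and grouped by the residue that their enzyme methylates, and their probe sets were found through the platform annotation with older symbols updated (WHSC1 for NSD2, MLL names for the KMT2 family). Of the 35 genes, 34 had at least 1 probe set that named them (ASH1L had none), and 33 could be tested among 10560 genes, since the only NSD1 probe set stayed between 2.42 and 3.57 on the log2 scale and a log2 value of 5 in at least 1 array was required. In all, 86 probe sets named a member and 71 reached that level. K562 cells received 5 nM PMA for 48 h (1 array), 100 nM DAC (1 array) or hemin at 25 and 50 µM (1 array each), against 2 untreated arrays. HEL cells were given 5 nM PMA for 48 h (1 array) or 20 nM DAC (1 array), against 1 untreated array. Cells given DAC were pulsed 3 times for 24 h and collected 144 h after the start. No hemin exposure time is stated in the sources used here, and the doses are those of the array titles, which differ from the DAC and hemin doses in the shared protocol. The sources do not say whether the 2 untreated K562 arrays came from separate cultures, so p-values rest in part on a spread that may be technical. Where hemin arrays entered a fit, the spread also holds the gap between doses. In the fit over both lines it also holds responses that differ between them. Each line has 1 culture history.

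Histone lysine methyltransferases transfer methyl groups from S-adenosylmethionine to lysines of histones, most of them through a SET domain, and DOT1L through a different fold. Methylation of H3K4 marks promoters and enhancers of active genes, that of H3K36 and H3K79 marks transcribed gene bodies, and that of H3K9 and H3K27 is linked to silencing, while H4K20 methylation takes part in chromatin compaction and the cell cycle. NSD2 places the dimethyl mark on H3K36 and is activated by translocation in multiple myeloma, and KMT2A is the gene rearranged in many acute leukemias. K562 and HEL are leukemia lines that express erythroid genes and can be pushed towards erythroid cells by hemin, a heme compound, or towards megakaryocytes by the phorbol ester PMA. DAC (decitabine) is a nucleoside that blocks DNA methylation.

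Values were log2 expression on a GCRMA scale, with array medians between 6.67 and 6.78, and the number of arrays, not read depth, limited the precision. In untreated K562 cells 8 of 8 measured erythroid markers (of 10 listed) reached a log2 value of 5, and in untreated HEL cells 7 of 8 did. Of 6 measured megakaryocyte markers (of 9), 4 did so in K562 cells with PMA, against 2 in each untreated K562 array, while 6 of 6 did in every HEL array. Of the monocyte and granulocyte markers 2 of 7, and of the lymphocyte markers 2 of 6, reached that level in any array. LYZ stood at 6.34 to 8.64 in K562 arrays, against 10.20 to 10.41 in HEL arrays, while ITGAM, the other of the 2 in the first list, stood at 2.45 to 7.27 in K562 arrays, against 2.29 to 3.63 in HEL arrays. In the second list CD3D, part of the T cell receptor complex, stood at 8.51 to 12.51 in K562 arrays, against 3.05 to 5.85 in HEL arrays, and CD2 at 2.42 to 2.47 in K562 arrays, against 3.32 to 6.24 in HEL arrays. Among the K562 arrays, DAC correlated more closely with the first untreated array (0.976 over all probe sets) than with the second (0.956), and 25 µM hemin more closely with the second (0.986) than with the first (0.977), while the untreated arrays correlated at 0.982. Differences between the 2 untreated K562 arrays exceeded 1.5-fold for 23.5% of all genes and for 5 of the 33 members (SUV39H1, SETDB2, SETD7, SMYD3 and SMYD5).

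With PMA in K562 cells, 5 members fell and 0 rose. The 5 that fell were NSD2 (H3K36), EZH2 (H3K27), KMT5A and KMT5C (H4K20) and SMYD4, 15.2% of the 33 tested, where 6.96% of all genes fell and 6.39% rose (limma, Benjamini-Hochberg over 10560 genes; 13.4% called in either direction). The median log2 difference was -0.35 over the members and -0.04 over all genes. By size alone, 12 members lay more than 1.5-fold lower with PMA (36.4%, where 28.2% of all genes did) and 3 higher (9.09%, where 24.9% did). With hemin 0 members passed the threshold, as did 0% of all genes, and 7 members had an unadjusted p under 0.05 (21.2%, where 10.9% of all genes did). More than 1.5-fold higher with hemin were EZH1, SETD4 and SETD1A (9.09%, where 8.81% of all genes were). This share includes SETD1A, which passed the filter on low values only through the 50 µM hemin array. The filter thus favoured its place in the count. More than 1.5-fold lower with hemin were KMT2D and KMT5B (6.06%, where 13.7% were). Their other kept probe sets were lower too but within 1.5-fold, at -0.51 and -0.41 for KMT2D and at -0.43 and -0.06 for KMT5B. The second SETD4 probe set was higher by 0.28, also within 1.5-fold. With DAC in K562 cells the count was again 0 members and 0% of all genes, with 3 members under an unadjusted p of 0.05 (9.09%, where 11.2% of all genes were). More than 1.5-fold higher with DAC were EHMT1, DOT1L, KMT5A, SETD6 and SMYD5 (15.2%, where 14.3% of all genes were), and lower were KMT2A, KMT5B, SETD7 and SMYD3 (12.1%, where 16.8% were). KMT5B was not of 1 direction over its probe sets, at -0.68 for 218242_s_at and -0.77 for 222566_at, but 1.19 for 222759_at. Nor were DOT1L, at 0.83 for 231297_at but -0.08 for 226201_at, and KMT5A, whose 4 probe sets spanned -0.25 to 0.59. The SMYD5 difference of 0.81 was smaller in size than that of -0.94 between its untreated K562 arrays. In HEL cells with DAC, SETD4 was more than 1.5-fold higher (3.03%, where 4.72% of all genes were) and EZH1 and KMT5C were lower (6.06%, where 6.46% were). At the second SETD4 probe set, 219482_at, this log2 difference was 0.006. Between the lines, 8 members were higher and 3 lower in K562 than in HEL cells, 24.2% and 9.09% of the members, where 19.7% and 16.3% of all genes were. One of the 8, SETD6, reached a log2 value of 5 in K562 arrays only, so that the filter favoured a difference. Of the 31 members that reached this level in each line, 7 were higher and 3 lower (22.6% and 9.68%), where 17.7% and 12.7% of such genes were. The share of members called between the lines was thus close to the background of 36% in either direction.

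**Figure D1:**
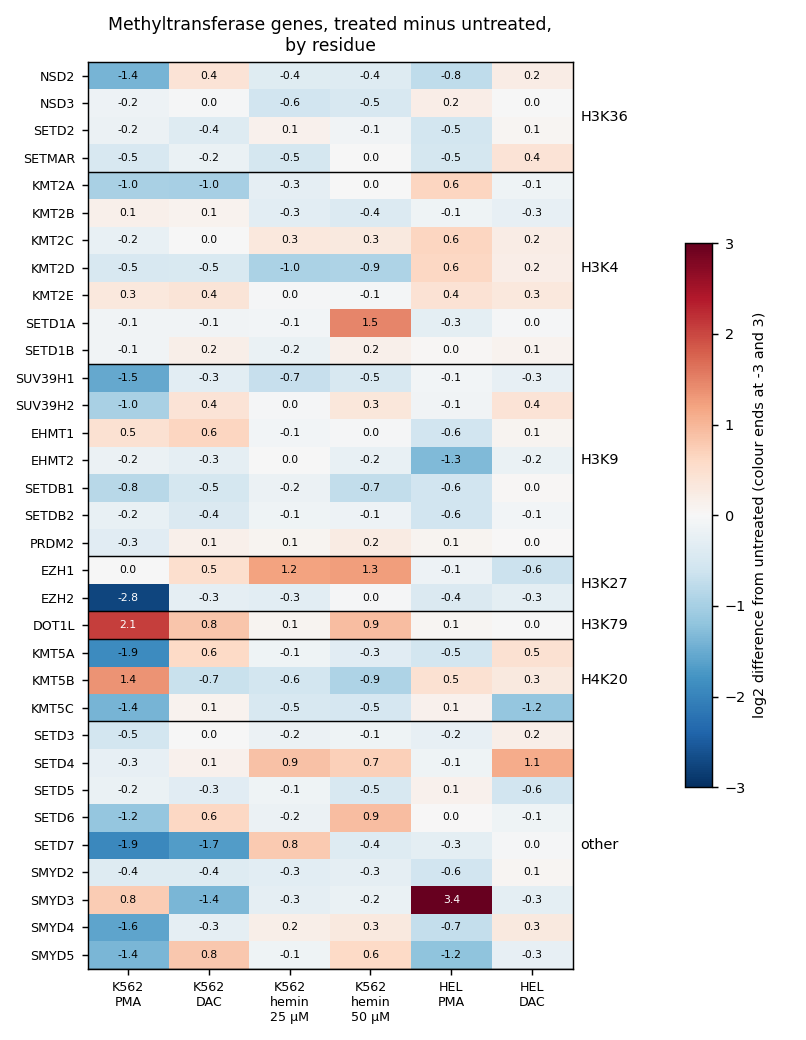
Log2 difference from untreated cells of the same line for the 33 tested members (rows, grouped by residue) in each treated array (columns), with the value printed in each cell. The K562 PMA column ranges between -2.76 for EZH2 and 2.06 for DOT1L, and the HEL PMA column holds the value of 3.40 for SMYD3.

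Among the H3K36 enzymes, NSD2 had 6 probe sets, all of which reached a log2 value of 5 in at least 1 array. The one with the highest mean, 209053_s_at, stood at 7.43 in K562 cells with PMA, 9.25 with DAC and 8.47 and 8.46 with the lower and the higher hemin dose, against 8.99 and 8.68 without treatment. In HEL cells the same probe set stood at 9.30 with PMA and 10.28 with DAC, against 10.05 in untreated cells. The PMA array was the lowest of each line, and no K562 array reached the lowest HEL array.

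NSD2 fell with PMA in K562 cells by 1.40 on the log2 scale (SE 0.18, 95% confidence interval -1.99 to -0.82, limma adjusted p = 0.0431). This call was lost without either untreated array or either hemin array (adjusted p between 0.106 and 0.133), where 0 of all 10560 genes passed, and with an intensity trend in the variance estimate (adjusted p = 0.0556). The other 5 NSD2 probe sets were lower as well. 209054_s_at stood at 6.48 with PMA, against 8.42 and 9.14 in untreated K562 cells. 222778_s_at stood at 4.49 with PMA, against 6.64 and 6.47 in untreated K562 cells. For all 6 probe sets the PMA array was below every other array of the 9, and the log2 differences in K562 cells spanned -2.30 to -1.40. When each probe set was tested on its own over 18903 probe sets (12% called), 4 of the 6 fell (209053_s_at, 222777_s_at, 222778_s_at and 223472_at).

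In HEL cells, where 1 array stood against 1 and the difference was not tested on its own, the 6 NSD2 probe sets were also all lower with PMA, by log2 differences of -1.25 to -0.45. Fitted over both lines together, the NSD2 difference with PMA was -1.10 (SE 0.29, 95% confidence interval -1.82 to -0.39), which missed the threshold (limma adjusted p = 0.146). The difference between the lines in this response was -0.65 (95% confidence interval -1.55 to 0.25, limma adjusted p = 0.337), so that a response of equal size was not excluded by the interval.

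**Figure D2:**
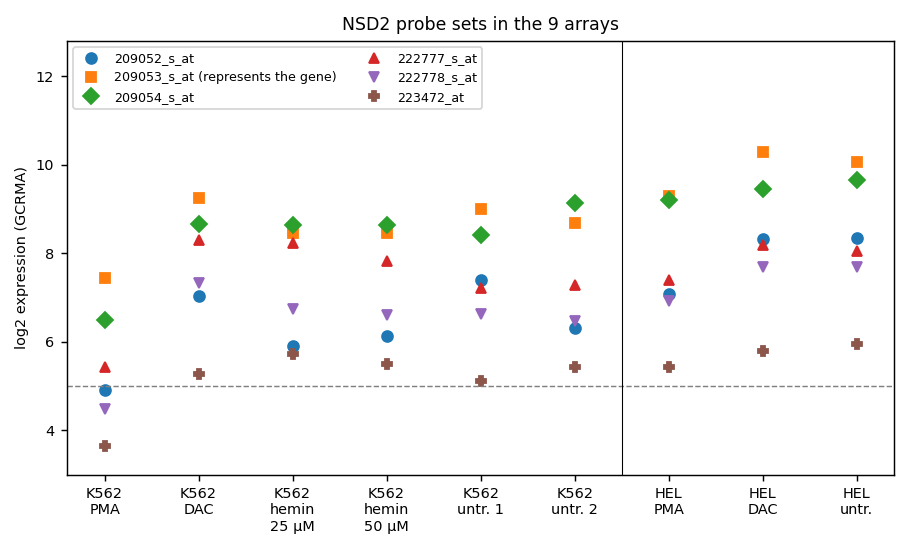
Log2 expression of the 6 NSD2 probe sets (symbols) in the 9 arrays, with K562 arrays left and HEL arrays right of the line and the level of 5 dashed. In the K562 PMA array every probe set lies below its value in the other 8 arrays, with 209053_s_at at 7.43.

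With hemin NSD2 did not pass the threshold. At 209053_s_at both hemin arrays lay below both untreated arrays, with a mean log2 difference of -0.37 (95% confidence interval -0.86 to 0.11, limma adjusted p = 0.479). The other probe sets did not share a direction. 222777_s_at stood at 8.24 and 7.82 with hemin, against 7.21 and 7.29 in untreated cells, a log2 difference of 0.78. 209052_s_at stood at 5.90 and 6.13 with hemin, against 7.40 and 6.31 in untreated cells, a log2 difference of -0.84. Over the 6 probe sets 3 were higher and 3 lower, and 0 passed the threshold. With DAC the NSD2 log2 difference was 0.42 in K562 cells (95% confidence interval -0.173 to 1.005, limma adjusted p = 0.494) and 0.23 in HEL cells, which was not tested on its own.

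NSD3, a paralog of NSD2 with the same target, was lower in K562 than in HEL cells. At 225318_at, which stands for the gene, it was between 8.44 and 9.02 in the 6 K562 arrays, against 9.79 to 10.02 in the 3 HEL arrays. These did not overlap, as was so for 16.9% of all genes in this direction. The fitted log2 difference was -0.91 (SE 0.19, limma adjusted p = 0.0175), a call lost in 4 of 13 alternative settings. The probe set 222544_s_at did not overlap either (8.25 to 9.09, against 9.25 to 9.91). The lines overlapped at 224076_s_at (6.48 to 7.18, against 6.77 to 7.89) and at 238496_at (6.30 to 7.82, against 7.47 to 8.23). With hemin NSD3 stood at 8.44 and 8.53 at 225318_at, against 9.02 in each untreated array. This was a difference of -0.53 with an unadjusted p of 0.0094 and a limma adjusted p of 0.434. NSD2 was likewise lower in K562 cells, by -1.36 (SE 0.24, limma adjusted p = 0.0098), and all 6 of its probe sets were lower, of which 2 passed when tested alone (33.1% of all probe sets did). The call for the gene was lost in 1 of 13 alternative settings. SETD2, which writes the trimethyl mark on H3K36, ranged from 7.94 to 8.67 over the 9 arrays, and SETMAR, a SET domain fused to a transposase, ranged from 6.44 to 7.38. Neither passed the threshold in any comparison.

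Of the H3K4 group, 3 members differed between the lines. KMT2A stood between 7.31 and 8.53 in K562 arrays, against 8.64 to 9.41 in HEL arrays, with a log2 difference of -1.20 (SE 0.35, limma adjusted p = 0.0462). KMT2C, the enhancer H3K4 monomethyltransferase, stood between 9.39 and 9.91 in K562 arrays, against 8.13 to 8.77 in HEL arrays, a difference of 1.14 (SE 0.25, limma adjusted p = 0.0205). KMT2E, a family member without known methyltransferase activity, stood between 9.78 and 10.24 in K562 arrays, against 8.80 to 9.24 in HEL arrays, a difference of 1.03 (SE 0.18, limma adjusted p = 0.0096). None of the 3 overlapped between the lines, as was so for 20.9% of all genes above and 16.9% below. KMT2A was not of 1 direction over its probe sets: 244110_at stood at 7.61 and 7.69 in the untreated K562 arrays, against 6.11 in untreated HEL cells. The line difference missed the threshold in 8 of 13 alternative settings for KMT2A, in 4 for KMT2C and in 1 for KMT2E.

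KMT2A was also the only member that lay beyond 1.5-fold in opposite directions with PMA (3.03%, where 3.06% of all genes did). This held at 226981_at, the probe set that stands for the gene, and at no other KMT2A probe set. In K562 cells all 6 probe sets were lower with PMA, by -2.13 to -0.14. In HEL cells 4 of the 6 were higher with PMA, and the differences spanned -0.29 to 0.75. At 226981_at KMT2A stood at 7.35 in K562 cells with PMA, against 8.09 and 8.53 in untreated cells. In HEL cells it stood at 9.41 with PMA, against 8.77 in untreated cells. The difference between these responses was -1.61 (SE 0.41, limma adjusted p = 0.185). That test called 0 members and 2.66% of all genes, and 7 members had an unadjusted p under 0.05 (21.2%, where 21.1% of all genes did). With DAC KMT2A stood at 7.31 in K562 cells, a log2 difference of -0.995 (unadjusted p = 0.0355, limma adjusted p = 0.427), and all 6 of its probe sets were lower. KMT2D, the other enhancer enzyme, stood at 8.61 and 8.65 with hemin, against 9.45 and 9.68 in untreated cells, a difference of -0.94 (SE 0.12, unadjusted p = 0.0049, limma adjusted p = 0.434). KMT2B (7.39 to 8.16 over the 9 arrays), SETD1A and SETD1B (9.16 to 9.87) passed in no comparison, and SETD1A reached a log2 value of 5 only in the 50 µM hemin array (5.09).

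In the H3K9 group, EHMT1 alone passed a threshold. It stood between 8.63 and 9.50 in K562 arrays, against 7.69 to 8.36 in HEL arrays, a difference of 1.06 (SE 0.28, limma adjusted p = 0.0334), and it missed the threshold in 6 of 13 alternative settings. EHMT2, its partner in the enzyme complex that dimethylates H3K9, stood at 7.63 in HEL cells with PMA, against 8.94 in untreated HEL cells, and at 7.76 in K562 cells with PMA, against 7.92 and 7.97 in untreated K562 cells. The lower value was thus seen in HEL cells, but the difference between these PMA responses (1.13, SE 0.22) missed the threshold with a limma adjusted p of 0.131. SUV39H1, which trimethylates H3K9 in heterochromatin, stood at 6.51 with PMA in K562 cells, against 8.37 and 7.73 in untreated cells (-1.54, limma adjusted p = 0.0929). Its paralog SUV39H2 stood at 9.26, against 10.27 and 10.21 (-0.98, limma adjusted p = 0.0878). For both genes the PMA array was the lowest of the K562 arrays. SETDB1 (7.40 to 8.75 over the 9 arrays), SETDB2 (6.31 to 7.26) and PRDM2 (8.40 to 8.99) passed in no comparison. A further PRDM2 probe set, 205277_at, stood at 2.66 to 3.45 in K562 arrays, against 6.14 to 7.38 in HEL arrays. This probe set passed the filter on low values through its HEL arrays alone, so that the filter favoured a difference. With the mean of its probe sets, 205277_at included, PRDM2 passed the threshold between the lines. The filter thus favoured that call too, and no conclusion is drawn from it.

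The catalytic subunits of PRC2, the complex that methylates H3K27, differed from each other. EZH2 stood at 7.95 in K562 cells with PMA, against 10.69 and 10.74 in untreated cells, and at 9.52 in HEL cells with PMA, against 9.97 in untreated cells. In K562 cells the PMA array lay more than 2 units below the other 5 arrays, which spanned 10.40 to 10.74. EZH2 fell by 2.76 on the log2 scale (SE 0.18, 95% confidence interval -3.33 to -2.20, limma adjusted p = 0.0183), and the difference between the lines in this response was -2.32 (SE 0.27, limma adjusted p = 0.0704). EZH1, the paralog found in resting and differentiated cells, stood at 7.29 with PMA in K562 cells, against 7.19 and 7.42 in untreated cells.

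EZH1 instead had the widest mean hemin difference of the 33 members at the probe sets that stand for the genes. A dimmer SETD3 probe set, 229940_at, was higher by 1.63, while the one that stands for SETD3 differed by -0.16. EZH1 stood at 8.52 and 8.57 with 25 and 50 µM hemin, against 7.19 and 7.42 in untreated cells, without overlap. The log2 difference was 1.24 (SE 0.13, 95% confidence interval 0.83 to 1.65) with an unadjusted p of 0.0025, but 0% of all genes passed after adjustment and its limma adjusted p was 0.434. The hemin pair exceeded the untreated pair without overlap for 6 of the 33 members (18.2%, where 21.7% of all genes did) and lay below it for 13 (39.4%, where 22.1% did). EZH1 was also higher in K562 than in HEL cells, at 7.19 to 8.57 against 5.99 to 6.64 (difference 1.05, SE 0.29, limma adjusted p = 0.0375), a call lost in 7 of 13 alternative settings.

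**Figure D3:**
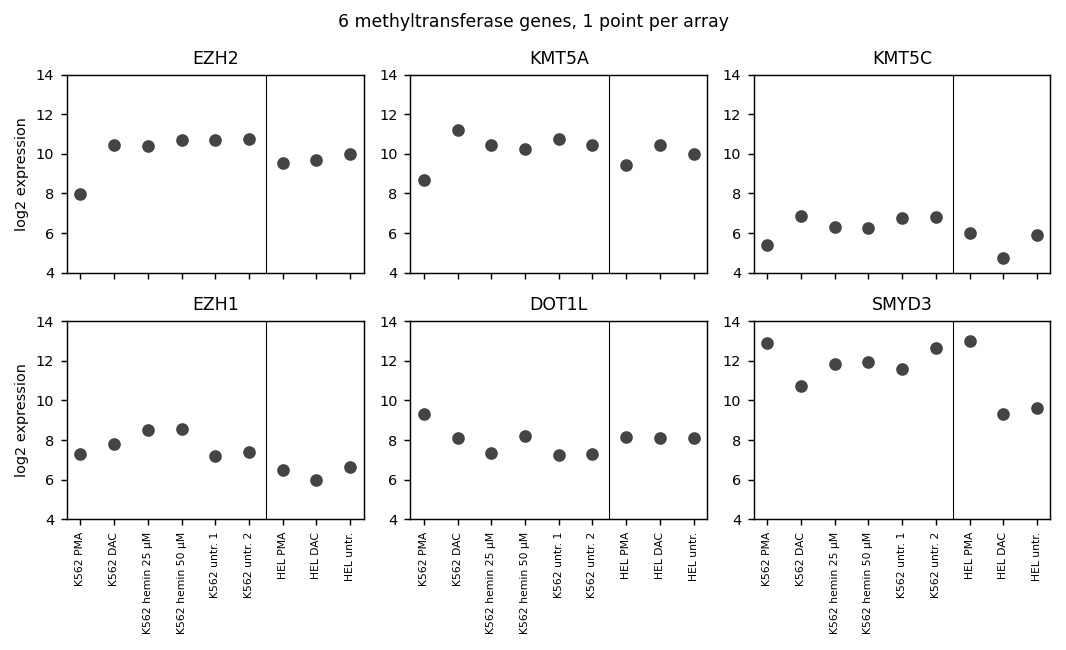
Log2 expression of 6 members in each of the 9 arrays, K562 left and HEL right of the line in each panel. EZH2, KMT5A and KMT5C have their lowest K562 value with PMA (7.95, 8.70 and 5.39), EZH1 its highest values with hemin (8.52 and 8.57), and DOT1L and SMYD3 have their highest K562 value with PMA (9.33 and 12.88).

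DOT1L, the only known H3K79 methyltransferase in human cells, stood at 9.33 in K562 cells with PMA, against 7.23 and 7.31 in untreated cells. Its second probe set, 226201_at, stood at 9.11 with PMA, against 7.13 and 5.96 in untreated cells. Both probe sets were highest in the PMA array, yet the log2 difference of 2.06 (SE 0.43, 95% confidence interval 0.68 to 3.45) missed the threshold (limma adjusted p = 0.0811), which it passed when arrays were centred on their medians or probe sets were chosen over the K562 arrays alone. In HEL cells DOT1L stood at 8.17 with PMA, against 8.11 in untreated cells. The 2 probe sets differed in direction with hemin: 231297_at stood at 7.35 and 8.19, against 7.23 and 7.31 in untreated cells, and 226201_at at 5.26 and 5.28, against 7.13 and 5.96.

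All 3 H4K20 methyltransferases lay more than 1.5-fold away from untreated cells with PMA in K562 cells, as did 28.2% of all genes downwards and 24.9% upwards, and 2 of the 3 fell. KMT5A, which writes the monomethyl mark in the cell cycle, stood at 8.70 with PMA, against 10.74 and 10.44 in untreated cells, and fell by 1.89 (SE 0.21, limma adjusted p = 0.0340). All 4 of its probe sets were lower, by -2.30 to -1.75. KMT5C, which adds further methyl groups to H4K20, stood at 5.39 with PMA, against 6.74 and 6.80 in untreated cells, and fell by 1.39 (SE 0.10, limma adjusted p = 0.0216). KMT5B, its paralog, stood at 9.62 with PMA, against 8.23 and 8.31 in untreated cells, a difference of 1.35 (SE 0.21) that missed the threshold (limma adjusted p = 0.0550). The KMT5B probe sets were unequal, with differences of 0.14 to 1.35.

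In HEL cells with PMA the same 3 genes stood at 9.44 (KMT5A), 6.02 (KMT5C) and 8.05 (KMT5B), against 9.98, 5.90 and 7.59 in untreated cells. None of these lay beyond 1.5-fold. The difference between the lines in the PMA response was -1.51 for KMT5C (SE 0.16, limma adjusted p = 0.0622) and -1.34 for KMT5A (SE 0.32, limma adjusted p = 0.168). With DAC in HEL cells KMT5C stood at 4.74, against 5.90 in untreated cells, while in K562 cells it stood at 6.88 with DAC, against 6.74 and 6.80.

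Among the SET domain genes with other or unsettled substrates, SETD6 and SMYD2 had the largest differences between the lines. SETD6, which methylates the NF-kappaB subunit RELA, stood between 6.35 and 8.43 in the 6 K562 arrays, against 2.33 to 2.46 in the 3 HEL arrays, where the lowest value of the whole table was 2.25. It passed the filter on low values through its K562 arrays alone, so that the log2 difference of 4.92 is a description with no test, and its size is open at the low end of the scale. Its second probe set, 219751_at, was at 6.73 and 6.77 in the untreated K562 arrays and at 2.42 to 2.45 in the HEL arrays. SMYD2, which methylates p53 among other proteins, stood between 9.73 and 10.30 in K562 arrays, against 7.28 to 7.93 in HEL arrays, a difference of 2.18 (SE 0.23, limma adjusted p = 0.0015). The SMYD2 difference passed the threshold in all 13 alternative settings.

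SETD4 stood between 6.58 and 7.70 in K562 arrays, against 5.43 to 6.66 in HEL arrays (0.95, limma adjusted p = 0.0406), with the ranges overlapping through the HEL DAC array at 6.66. This was seen at 213989_x_at, the probe set that stands for the gene. The second SETD4 probe set, 219482_at, stood at 5.41 to 6.27 in K562 arrays and at 5.62 to 5.63 in HEL arrays. With the mean of its probe sets SETD4 missed the threshold. SMYD4 stood between 4.51 and 6.41 in K562 arrays, against 4.08 to 5.08 in HEL arrays (0.88, limma adjusted p = 0.0409). Each of these calls was lost in 6 of 13 alternative settings. SMYD4 fell with PMA in K562 cells, at 4.51 with PMA, against 5.97 and 6.24 in untreated cells (fall of 1.59, SE 0.18, limma adjusted p = 0.0363), and stood at 4.08 in HEL cells with PMA, against 4.79. SETD3 (7.93 to 8.58 over the 9 arrays), SETD5 (9.93 to 10.63), SETD7, SMYD3 and SMYD5 passed the threshold in no comparison.

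**Figure D4:**
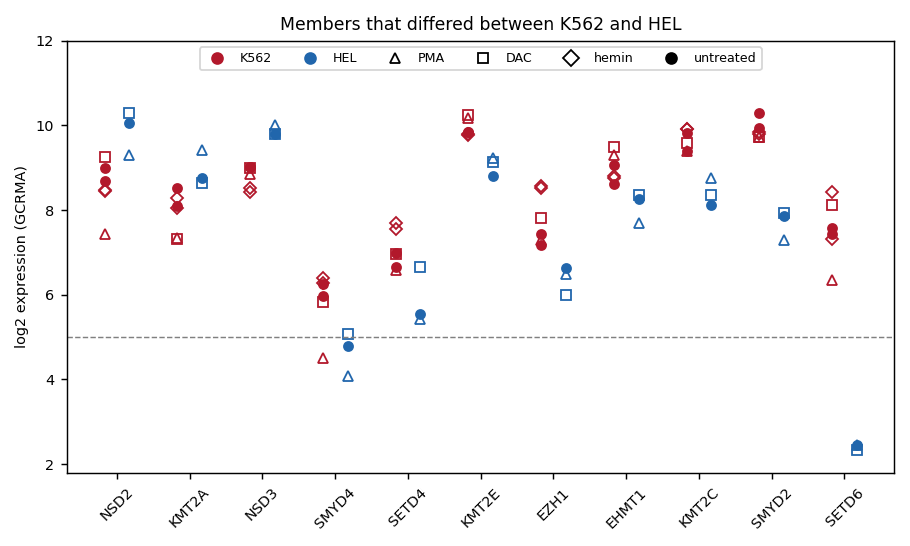
Log2 expression of the 11 members that differed between the lines, with K562 arrays left (red) and HEL arrays right (blue) for each gene, treatment by symbol and the level of 5 dashed. SETD6, which reached this level in K562 arrays only, is at 6.35 to 8.43 there and at 2.33 to 2.46 in HEL arrays. SETD4 and SMYD4 overlap between the lines.

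SMYD3, which methylates MAP3K2 and histones, stood at 13.00 in HEL cells with PMA, against 9.61 in untreated HEL cells, the widest treatment difference of any member (3.40). In K562 cells it stood at 12.88 with PMA, against 11.60 and 12.65 in untreated cells, a difference of 0.75 that was smaller than the gap of 1.05 between the untreated arrays. The difference between these responses was -2.64 (SE 0.82, limma adjusted p = 0.235). SETD7 was also unsteady in untreated K562 cells, at 8.70 and 9.82, and stood at 7.32 with PMA and 7.58 with DAC. SMYD5 stood at 4.90 with PMA, against 6.75 and 5.81 in untreated K562 cells, and at 6.07 with PMA, against 7.28 in untreated HEL cells.

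Set side by side, NSD2, SMYD4 and SMYD5 lay more than 1.5-fold lower with PMA in each line (9.09% of members, where 8.4% of all genes were) and SMYD3 more than 1.5-fold higher in each (3.03%, where 8.02% were). In HEL cells alone, 4 members lay more than 1.5-fold lower (12.1%, where 16.4% of all genes did) and 4 higher (12.1%, where 14.6% did). In the fit over both lines 0 members passed (0.312% of all genes did), and 8 had an unadjusted p under 0.05 (24.2%, where 22.8% of all genes did). For DAC over both lines 0 members and 0% of all genes passed, with 0 members and 4.13% of all genes under an unadjusted p of 0.05.

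**Figure D5:**
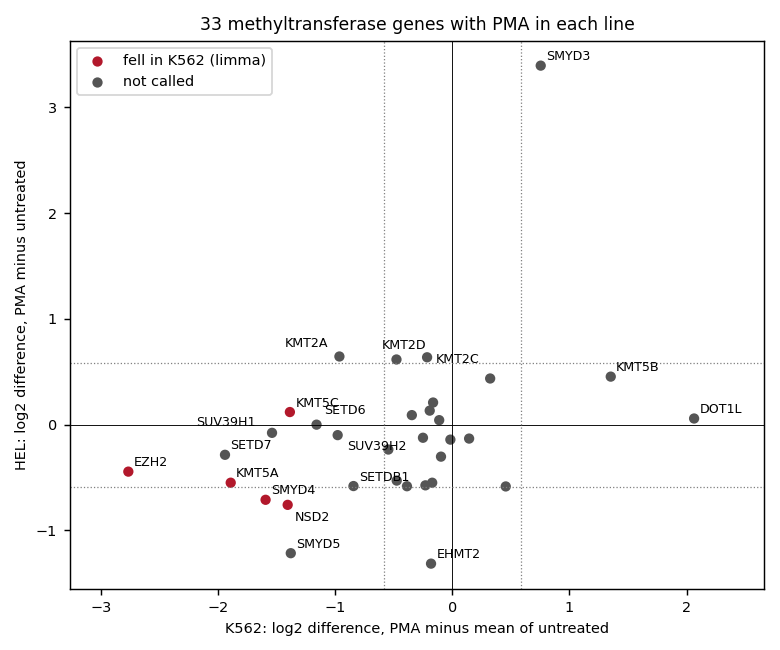
Log2 difference with PMA in K562 cells (x axis) against that in HEL cells (y axis) for the 33 tested members, with those that fell in K562 cells in red and lines of 1.5-fold dotted. The 5 red genes lie between -2.76 and -1.39 in K562 cells, and SMYD3 lies at 3.40 in HEL cells.

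Proliferation genes moved with PMA in K562 cells in the same arrays. Of 21 such genes 19 fell, where 6.96% of all genes did. Their median log2 difference was -3.13, and the median level was 8.69 with PMA, against 11.64 and 11.62 in the untreated arrays. In HEL cells their median level was 11.13 with PMA, against 11.75 in untreated cells. There 4 of 21 were more than 1.5-fold lower, where 16.4% of all genes were, and 2 of 21 higher, where 14.6% were. The difference between these responses passed the threshold for 5 of 21, where 2.66% of all genes passed. The part of proliferation in the lower NSD2, EZH2, KMT5A, KMT5C and SMYD4 values was not tested, and in bulk samples fewer cells of a kind and less RNA per cell cannot be told apart.

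Among partner genes of the methyltransferases, 3 of 35 fell and 0 rose with PMA in K562 cells (8.57% fell, where 6.96% of all genes did and 6.39% rose). Of 9 PRC2 partners, EED, the subunit that binds trimethylated H3K27, fell by 1.12 (SE 0.14, limma adjusted p = 0.0414). Of 12 partners of the H3K4 enzymes, ASH2L, a core subunit, fell by 1.25 (SE 0.12, limma adjusted p = 0.0287). Of 8 H3K9 partners and readers, CBX1, an HP1 protein that binds methylated H3K9, fell by 1.42 (SE 0.20, limma adjusted p = 0.0476). Each was 1 gene of its list. Of 6 DOT1L partners and 19 lysine demethylases 0 passed, and the smallest p values were those of MLLT3 (1.79, limma adjusted p = 0.0626), MLLT10 (-1.59, limma adjusted p = 0.110), KDM2B (-0.90, limma adjusted p = 0.117) and KDM5A (0.61, limma adjusted p = 0.123). With hemin and with DAC 0 genes of these lists passed.

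Between the lines, 7 of 19 lysine demethylases passed the threshold (36.8%, where 36% of all genes did). JMJD1C (1.65), KDM1B (1.63), KDM6A (1.21) and PHF2 (0.98) were higher in K562 than in HEL cells, and KDM4C (-3.14) and KDM1A (-0.93) were lower (log2 differences, limma adjusted p between 0.00058 and 0.0393). The other, KDM7A, reached a log2 value of 5 in K562 arrays alone (5.70 to 7.91, against 2.46 to 3.57 in HEL arrays), so that the filter favoured a difference. Of the 35 partner genes 7 passed (20%, where 36% of all genes did). MLLT3, a reader that works with DOT1L, stood at 3.45 to 5.34 in K562 arrays, against 9.48 to 10.76 in HEL arrays, a log2 difference of -5.93. Of its K562 arrays PMA alone reached a log2 value of 5 (5.34). The filter thus favoured a difference, and its size is open at the low end of the scale. PSIP1, which binds methylated H3K36 and tethers KMT2A, was lower by -3.20 (SE 0.40, limma adjusted p = 0.0030). Of the PRC2 partners, MTF2 (-1.21) and AEBP2 (-1.02) were lower and PHF19 (1.65) higher, and of the H3K9 list ZNF644 (-1.11) and TRIM28 (-1.30) were lower.

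Promoters of the 5 genes that fell with PMA in K562 cells are shown so that their motifs can be read beside those values, together with that of SETD6, the gene with the widest line difference. Windows run from 250 bases before to 50 after the start (RefSeq, GRCh38.p14), for 32 of the 35 members in 45 windows. Capitals mark E2F words (TTTCCCGC, TTTCGCGC, TTTGGCGC or TTTGCCGC), cell cycle homology region (CHR) words (TTTGAA or TTCGAA) and the CCAAT box, each searched on both strands. EZH2 and KMT5A have a second window each with none of these words, which is not printed.
NSD2, chr4:1871143-1871442, plus strand: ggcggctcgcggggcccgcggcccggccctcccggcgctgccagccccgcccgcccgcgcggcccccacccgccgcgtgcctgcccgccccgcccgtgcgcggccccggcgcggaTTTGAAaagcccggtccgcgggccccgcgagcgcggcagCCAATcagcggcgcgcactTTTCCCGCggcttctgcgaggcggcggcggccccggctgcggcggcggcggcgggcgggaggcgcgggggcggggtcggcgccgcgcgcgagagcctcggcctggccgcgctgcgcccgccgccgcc
EZH2, chr7:148884242-148884541, minus strand: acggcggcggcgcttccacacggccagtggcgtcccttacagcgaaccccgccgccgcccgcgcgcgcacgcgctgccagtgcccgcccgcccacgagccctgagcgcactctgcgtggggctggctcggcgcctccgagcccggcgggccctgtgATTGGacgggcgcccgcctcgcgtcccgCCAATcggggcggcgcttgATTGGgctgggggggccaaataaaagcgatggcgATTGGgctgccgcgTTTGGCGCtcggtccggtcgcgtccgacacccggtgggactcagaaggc
KMT5A, chr12:123383882-123384181, plus strand: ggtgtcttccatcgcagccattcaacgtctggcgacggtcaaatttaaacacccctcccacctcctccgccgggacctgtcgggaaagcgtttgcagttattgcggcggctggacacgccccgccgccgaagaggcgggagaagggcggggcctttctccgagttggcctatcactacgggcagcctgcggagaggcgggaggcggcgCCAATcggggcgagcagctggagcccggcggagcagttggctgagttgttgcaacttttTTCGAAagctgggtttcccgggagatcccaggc
KMT5C, chr19:55339626-55339925, plus strand: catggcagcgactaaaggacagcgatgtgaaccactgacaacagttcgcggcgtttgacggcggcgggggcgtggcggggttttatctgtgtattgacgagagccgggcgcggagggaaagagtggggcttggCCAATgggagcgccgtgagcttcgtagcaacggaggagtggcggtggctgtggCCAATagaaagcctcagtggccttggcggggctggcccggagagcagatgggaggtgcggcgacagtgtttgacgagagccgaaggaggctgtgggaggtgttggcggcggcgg
SMYD4, chr17:1829853-1830152, minus strand: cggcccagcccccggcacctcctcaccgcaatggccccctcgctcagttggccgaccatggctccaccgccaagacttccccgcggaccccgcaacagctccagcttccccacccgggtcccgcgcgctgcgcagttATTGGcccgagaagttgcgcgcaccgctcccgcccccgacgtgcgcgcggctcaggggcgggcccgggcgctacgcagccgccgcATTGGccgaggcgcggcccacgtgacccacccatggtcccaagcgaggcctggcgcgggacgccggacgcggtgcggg
SETD6, chr16:58515267-58515566, plus strand: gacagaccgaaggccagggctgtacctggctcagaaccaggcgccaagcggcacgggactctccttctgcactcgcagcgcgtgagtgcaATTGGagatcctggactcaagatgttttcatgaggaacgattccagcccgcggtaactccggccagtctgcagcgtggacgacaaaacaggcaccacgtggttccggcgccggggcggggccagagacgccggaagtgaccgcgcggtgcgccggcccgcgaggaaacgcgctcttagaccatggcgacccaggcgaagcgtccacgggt

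The NSD2 window held 1 word of each kind, and the EZH2 window 1 E2F word and 4 CCAAT boxes. KMT5A had 1 CHR word and 1 CCAAT box, KMT5C and SMYD4 had 2 CCAAT boxes each, and SETD6 had 1 CCAAT box. E2F words were in 4 of 45 member windows (those of EZH1, EZH2, NSD2 and SETMAR; 8.89%), where 3.31% of 35116 promoters held one. CHR words were in 5 of 45 (windows of KMT5A, NSD2, PRDM2 and SUV39H2; 11.1%), where 16.4% of promoters held one, and CCAAT boxes in 16 of 45 (35.6%), where 34.6% did. The NSD2 window held 63 CpG dinucleotides and the SETD6 window 33, where the median promoter held 14. These matches are descriptions of the letters, with no binding or methylation measured.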

How the data were processed

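The values deposited by the authors of the earlier hemin study are log2 expression from total RNA of 9 arrays. GCRMA is named in the submitters' processing notes, with its version not given, and it removes background by probe sequence before quantile normalization across arrays. A shift shared by most genes would thus have been removed, and the order of values close to the minimum of 2.25 is not informative. The test of each fit was run on these log2 values in R 4.3.3 with limma 3.58.1.

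Of 27306 probe sets, 22858 named 1 gene, 1164 several and 3284 none. Those of 1 gene were kept if any of the 9 arrays reached a log2 value of 5 (18903), and of several for a gene the one of highest mean stood for it (10560 genes). The 6 K562 arrays were fitted in 4 groups, the hemin doses pooled (2 residual degrees of freedom), so that the lone PMA and DAC arrays were assumed to vary like the untreated and hemin arrays. The 7 untreated, DAC and PMA arrays gave an additive fit of line and treatment (3 residual degrees of freedom), and all 9 arrays in 7 groups gave the difference between PMA responses (2 residual degrees of freedom). Benjamini-Hochberg adjustment ran over all genes with a threshold of 0.05. HEL treatments had 1 array each and were counted past 1.5-fold, with no test. Each fit was tested on simulated data. The members, the other gene lists and the tests were chosen with earlier results of these data known. Members named in full were those past the threshold in a comparison, or among the 3 largest in each direction with a mean log2 value of at least 6. Normalization, filter, probe set choice, variance trend and each array left out were varied. The paper's methods name no test for these arrays, and Student's t-test, which they name in general, was run for hemin.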

Additional observations from a re-analysis of the deposited data

How the results depend on the processing

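With PMA in K562 cells, the count of members that passed was 3 (EZH2, KMT5A and SMYD4) with an intensity trend, and between 0 and 5 when arrays were left out, with 0 without either untreated or either hemin array, where 0 of all 10560 genes passed and 1 residual degree of freedom was left. Centring arrays on their medians gave 7, adding DOT1L and KMT5B. The fit of PMA over both lines gave 0 to 7 members when arrays were left out, the 7 being without the HEL PMA array. The comparison of K562 with HEL gave 3 to 12 members when arrays were left out, the 3 (KMT2A, SETD6 and SMYD2) being without the untreated HEL array. SETD6 is counted there although it reached a log2 value of 5 in K562 arrays only, so that the filter favoured it. Without a filter on dim probe sets, the difference between PMA responses passed for 1 member, KMT5C, and NSD1 passed between the lines. The hemin difference of DOT1L turned to -0.39 with the mean of its probe sets (limma adjusted p = 0.611), against 0.50 in the fit as reported and 0.08 to 0.92 when arrays were left out, since its probe sets differ in sign (0.50 for 231297_at and -1.28 for 226201_at).

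Over all genes, DAC in K562 cells gave 0 calls, but 27 with arrays centred, 11 without a filter, 17 with the mean of probe sets and 63 with an intensity trend. The difference between PMA responses gave 281 calls, 696 without a filter, 156 with a filter at 6, 644 with an intensity trend, and 0 without either untreated K562 or either hemin array. PMA over both lines gave 33 calls, 15 without a filter, 55 with quantile normalization, 53 with a filter at 6, 2174 without the HEL PMA array and 0 without any of the untreated or DAC arrays. Student's t-test, the methods' t-test, gave 706 genes with hemin unadjusted and 20 after Benjamini-Hochberg adjustment, with 6 and 0 members. No paired analysis was possible because the labels number neither the untreated nor the hemin arrays, and the hemin arrays differ in dose. With 1 or 2 arrays a condition, a difference under the gap between the untreated arrays could not be shown.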
